A study of Mus musculus with 12 samples.

Results

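The amyloid precursor protein gene App, its paralogs Aplp1 and Aplp2, the secretase genes Psen2, Bace1, Ncstn and Adam10, and the apolipoprotein genes Apoe and Clu were followed in brain tissue of Camk2a-RiboTag mice. The 9 genes were chosen by name as a biological set, with earlier results of these data known. All 9 were found among the 20504 genes of the coding sequence (CDS) table and the 23352 genes of the exon table. All 6 mice, adult animals 3 months old, carried Cre recombinase under the Camk2a promoter together with the RiboTag allele, a Cre-dependent hemagglutinin (HA) tag on the ribosomal protein Rpl22, so that ribosomes of Camk2a-expressing neurons are tagged, most of which are excitatory neurons of the forebrain. Mice A and B were controls, labelled untreated and given the captisol vehicle by gavage according to the methods, and mice C and D received a single oral dose of AZD-8055 at 100 mg/kg 1 h before tissue collection. AZD-8055 is an ATP-competitive inhibitor of the kinase mTOR. One poly(A) RNA-Seq library and one ribosome footprint library were made from the same lysate of each of these 4 mice, from the right frontal lobe. Mice E and F were labelled untreated and gave an input RNA-Seq library and an HA immunoprecipitate (IP) RNA-Seq library each. There were thus 12 libraries, with 2 mice in every group.

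App encodes a transmembrane protein of neurons that is cut in succession by secretases. Adam10 encodes the main neuronal alpha-secretase, which sheds the ectodomain without releasing amyloid-beta, and Bace1 encodes the beta-secretase, whose cut opens the way to amyloid-beta. Psen2 (presenilin 2, a catalytic subunit) and Ncstn (nicastrin, a subunit that takes part in substrate selection) belong to gamma-secretase, which cuts the remaining stub within the membrane. Aplp1 and Aplp2 encode relatives of App that are cut by the same enzymes but lack the amyloid-beta sequence. Apoe encodes apolipoprotein E, the main lipid carrier of the brain and a product largely of astrocytes, and Clu encodes clusterin, also called apolipoprotein J, a secreted chaperone that binds lipids and amyloid-beta.

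On the mouse GRCm38.p6 assembly (mm10), App lies at chr16:84952666-85175255, Aplp1 at chr7:30434980-30445582 and Aplp2 at chr9:31149557-31211848. The secretase genes lie at chr9:45838545-45862484 (Bace1), chr9:70678944-70780229 (Adam10), chr1:172066013-172082789 (Ncstn) and chr1:180227004-180263467 (Psen2). Apoe lies at chr7:19696244-19701310 and Clu at chr14:65968483-65981548. Aplp1, Apoe and Clu overlap no other RefSeq gene. Bace1 overlaps Rnf214 and Ncstn overlaps Copa, both protein coding, App and Psen2 overlap a long noncoding RNA gene each (Gm10791 and Gm31728), and Aplp2 and Adam10 overlap pseudogenes (Gm46106 and Gm33535, and Cycs-ps1). The RNA-Seq kit does not mark strand, so reads of overlapping genes on opposite strands cannot be told apart, and the values of Bace1 and Ncstn carry that uncertainty.

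CDS counts summed to between 3503873 and 9259938 per footprint library and between 9395385 and 10649939 per RNA-Seq library of mice A to D. The 4 RiboTag libraries held between 19681269 and 27878212 exon counts. Mouse B stood apart in its choroid plexus markers. The summed level of the 5 markers (Ttr, Kl, Clic6, Folr1 and Kcnj13) was 1070.4 CPM (counts per 1000000 CDS counts of the library) in its RNA-Seq library and 1240.3 CPM in its footprint library, against 35.2 to 82.6 CPM in the other RNA-Seq libraries and 42.0 to 114 CPM in the other footprint libraries. Input F held 50.6 CPM of these markers on exons against 14.4 CPM in input E. None of the 5 markers was at 0 in any input, RNA-Seq or footprint library. Their part in the values of the APP family, secretase and apolipoprotein genes was not tested, and values without mouse B are given where they matter.

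The level of each gene was first set side by side over the 4 kinds of library (footprints, RNA-Seq, input and IP), in CPM of CDS counts. App was highest in footprints (3977 to 4278 CPM in 4 mice), lower in the RNA-Seq of mice A to D (2269 to 2434 CPM) and in input (2121 and 2207 CPM), and lowest in IP (2097 CPM in mouse E and 1884 CPM in mouse F). Aplp1 followed nearly the opposite order, with 4324 and 4141 CPM in IP, 2368 to 2491 CPM in RNA-Seq, 1979 and 1797 CPM in input and 1289 to 1577 CPM in footprints. None of these ranges overlapped between kinds of library for either gene, but differences between kinds of library were common. In the tests below, 73.8% of 11797 genes differed between footprints and RNA-Seq of vehicle mice. Between IP and input, on exon counts, 69.4% of 13254 genes did. How many genes had ranges without overlap was not counted. Aplp2 resembled App and was lowest in IP, at 441 and 427 CPM, against 686 to 745 CPM in the RNA-Seq and input libraries and 1249 to 1285 CPM in footprints. Over the 12 libraries the Pearson correlation of log2(CPM + 1) was 0.94 between App and Aplp2, −0.82 between App and Aplp1 and −0.96 between Aplp2 and Aplp1, points that share their kind of library and, in pairs, their mouse.

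Apoe stood between 2423 and 2667 CPM in the RNA-Seq libraries and between 2295 and 2618 CPM in the footprint libraries, ranges that overlap. It fell to 1728 and 1485 CPM in input and to 170 and 178 CPM in IP, and Clu had its lowest level in the same libraries. Clu was at 1566 to 1667 CPM in footprints, 1289 to 1404 CPM in RNA-Seq, 1115 and 1079 CPM in input and 409 and 451 CPM in IP. The correlation between Apoe and Clu over the 12 libraries was 0.98. The secretase genes were counted far less often, with 56 to 231 CDS counts of Psen2 per matched library, 227 to 784 of Bace1, 374 to 1055 of Ncstn and 302 to 924 of Adam10, so that counting error weighs most on Psen2.

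**Figure D1:**
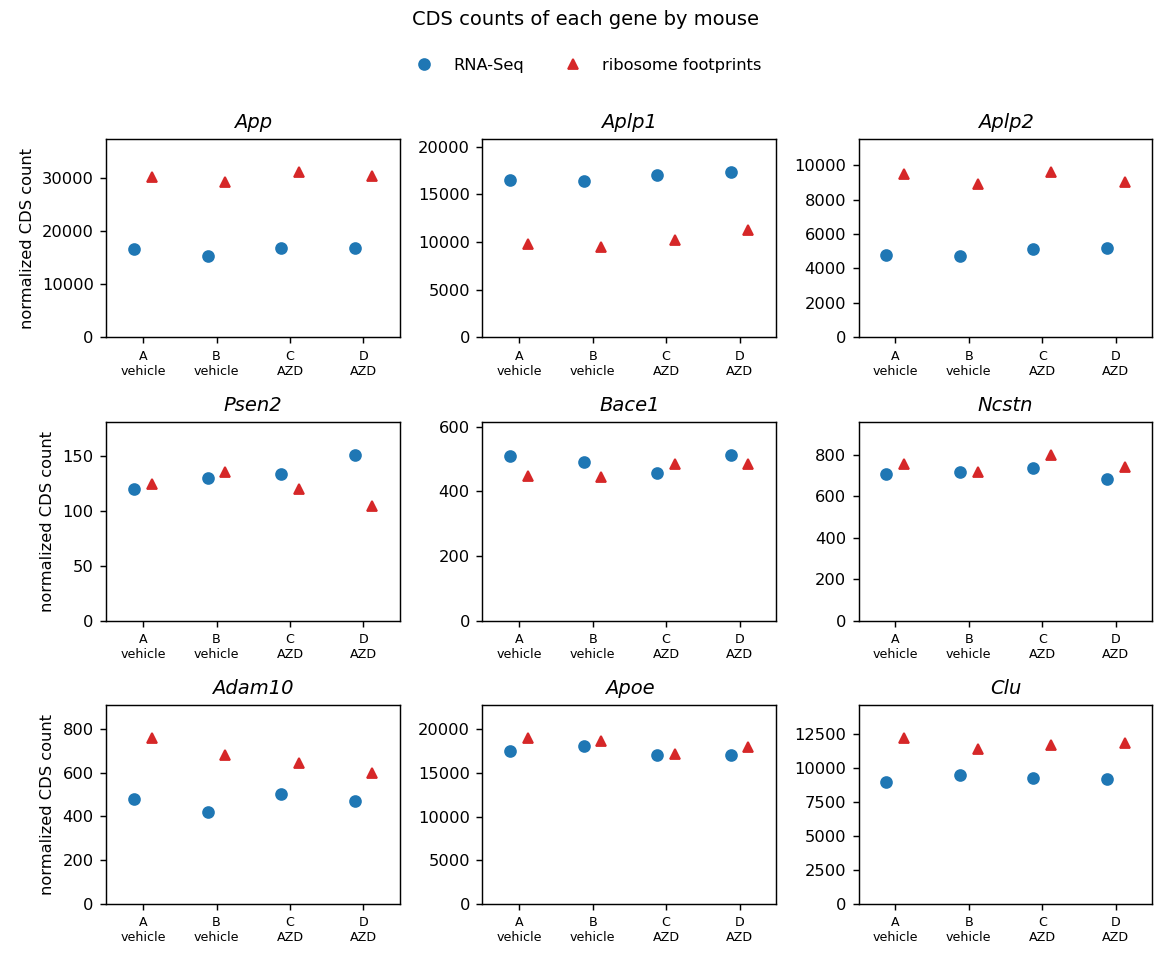
Normalized CDS counts (y axis, a separate linear scale from 0 for each gene) of the 9 genes in mice A and B (vehicle) and C and D (AZD-8055) on the x axis, with RNA-Seq as blue circles and ribosome footprints as red triangles, 1 point per library. Footprints lie above RNA-Seq in all 4 mice for App, Aplp2, Adam10 and Clu and below it in all 4 for Aplp1, while the points of Ncstn, Bace1 and Apoe lie close together and those of Psen2 change order between the vehicle and the AZD-8055 mice.

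The first comparison asked how densely each mRNA was occupied by ribosomes relative to its abundance, its translation efficiency (TE), in vehicle mice. TE is the footprint count divided by the RNA-Seq count of the same mouse, each over a DESeq2 size factor of its library, and is relative to other genes. Footprints and RNA-Seq come from different library chemistries, so occupancy cannot be told apart from differences in how each protocol recovers a transcript. The APP family was divided in TE. App and Aplp2 had high TE, Aplp1 had low TE, Adam10 stood with App, Clu was moderately high, and Psen2, Bace1, Ncstn and Apoe lay near the typical gene.

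App had 16762 and 15394 normalized RNA-Seq counts in mice A and B and 30203 and 29316 normalized footprint counts. The footprint level was higher than the RNA-Seq level in both, giving log2 TE of 0.85 and 0.93 (mean 0.89 ± 0.056 SD, n = 2). Aplp2 had 4772 and 4704 normalized RNA-Seq counts against 9501 and 8886 normalized footprint counts, and a log2 TE of 0.99 and 0.92. These values placed App at the 84.8th and Aplp2 at the 86.5th percentile of log2 TE among 10882 genes, whose median was 0.016 and whose SD was 0.99. Aplp1 had 16468 and 16370 normalized RNA-Seq counts and only 9786 and 9494 normalized footprint counts. Its log2 TE of −0.75 and −0.79 (mean −0.77 ± 0.025 SD, n = 2) lay at the 20.8th percentile.

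In edgeR's quasi-likelihood test of footprints against RNA-Seq in vehicle mice, with Benjamini-Hochberg adjustment over 11797 genes, log2 TE was 0.95 (SE 0.048, adjusted p = 7.5e-11) for App and 1.01 (SE 0.056, adjusted p = 2.0e-10) for Aplp2. It was −0.71 for Aplp1 (SE 0.060, adjusted p = 2.9e-08 in the same edgeR test). Of the 9 genes, 5 were called higher (App, Aplp2, Adam10, Clu and Apoe) and 1 lower (Aplp1) at an adjusted p below 0.05. Over all genes 37.1% were called higher and 36.7% lower, so a call in itself is common here. The median log2 TE of the 9 genes in this fit was 0.14, against 0.0051 for all genes tested. Of the 6 called genes only Aplp2, at 2.02-fold, was past a fold of 2.

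The split within the family was also present in AZD-8055 mice. App minus Aplp1 in log2 TE was 1.60, 1.72, 1.63 and 1.47 in mice A to D (mean 1.61 ± 0.10 SD, n = 4, exact sign-flip permutation test, two-sided p = 0.125, adjusted p = 0.167 over 4 pairs). Aplp2 minus Aplp1 was 1.63 ± 0.14 (SD, n = 4, exact permutation p = 0.125) and positive in each of the 4 mice. With 4 mice 0.125 is the smallest p this test can give. App and Aplp2 differed from each other by −0.028 ± 0.082 (SD, n = 4, exact permutation p = 0.75), with mouse values from −0.14 to 0.045. That difference was smaller than the spread between mice.

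Of the 4 secretase genes Adam10, Bace1, Ncstn and Psen2, Adam10 was the only one with a call in vehicle mice. It had 481 and 419.7 normalized RNA-Seq counts and 758 and 682 normalized footprint counts in mice A and B, and footprints exceeded RNA-Seq in both mice. Its log2 TE was 0.66 and 0.70, at the 78.4th percentile, and 0.74 in the edgeR fit (SE 0.086, adjusted p = 1.3e-06). Bace1, the beta-secretase, had log2 TE of −0.19 and −0.14, Ncstn 0.094 and 0.0021, and Psen2 0.056 and 0.062. None of these 3 passed the edgeR test (adjusted p = 0.277, 0.207 and 0.561), and their 95% confidence intervals ran from −0.30 to 0.080 for Bace1, from −0.052 to 0.26 for Ncstn and from −0.22 to 0.42 for Psen2.

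Clu had 8963 and 9524 normalized RNA-Seq counts and 12204 and 11437 normalized footprint counts in mice A and B. Its log2 TE of 0.45 and 0.26 (mean 0.35 ± 0.13 SD, n = 2) differed between the mice more than that of any other of the 9 genes, and the edgeR value was 0.41 (SE 0.055, adjusted p = 5.4e-06). Mouse B, with the high choroid plexus markers, had the lower of these values. Apoe had 17553 and 18096 normalized RNA-Seq counts and 18970 and 18625 normalized footprint counts, almost equal in each mouse, with log2 TE of 0.11 and 0.042. Its edgeR value of 0.14 (SE 0.051, adjusted p = 0.0262) was 1.10-fold, and the call was lost without a filter on low counts (0.033, adjusted p = 0.714), with a mean of at least 200 counts required (0.097, adjusted p = 0.0828), and without mouse A (0.11, adjusted p = 0.235), B (0.14, adjusted p = 0.146) or C (0.12, adjusted p = 0.0523), all with edgeR. Apoe minus Clu in log2 TE was −0.29 ± 0.052 (SD, n = 4) and negative in 4 of 4 mice (exact permutation p = 0.125).

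**Figure D2:**
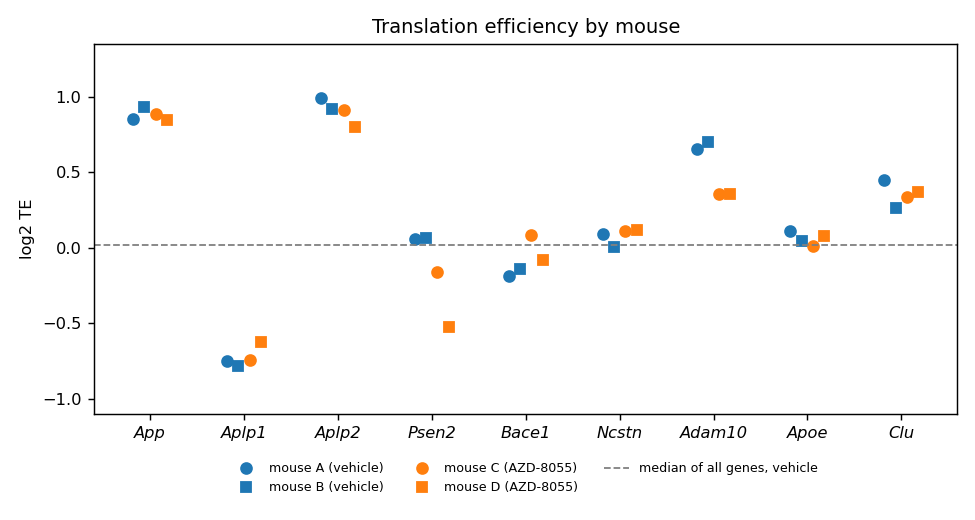
Log2 TE (y axis, footprints over RNA-Seq, size-factor scaled) of each gene on the x axis, with vehicle mice A and B in blue, AZD-8055 mice C and D in orange, and the median of all genes in vehicle mice, 0.016, as a dashed line. App and Aplp2 sit between 0.80 and 0.99 in all 4 mice, Aplp1 sits between −0.79 and −0.63, and Adam10 has vehicle points at 0.66 and 0.70 above AZD-8055 points at 0.36 and 0.35.

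The second comparison asked what 1 h of mTOR inhibition did to these genes. The transcripts known to depend on mTOR served as a check of the treatment. These are mRNAs with a terminal oligopyrimidine (TOP) tract, which encode ribosomal proteins and elongation factors. All 8 of a list of TOP mRNAs fell in TE, with log2 changes from −1.59 to −1.17, and none of the 8 was called in RNA-Seq. The study examined TOP mRNAs in these same samples, so the list is no independent evidence of direction. None of the 9 genes was called in RNA-Seq, in footprints or in TE. Over all genes, edgeR called 0.148% of 12182 in RNA-Seq, 1.01% of 10695 in footprints and 0.865% of 11797 in TE, so that 0 of 9 lies close to this background. At an unadjusted p below 0.05 the 3 tests had 1004, 1371 and 798 genes, and DESeq2 likewise called none of the 9.

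The RNA-Seq level of App was 16762 and 15394 normalized counts in vehicle mice and 16892 and 16952 in AZD-8055 mice, and its footprint level 30203 and 29316 against 31241 and 30504. Vehicle and treated values lay close together in both kinds of library. The log2 change was 0.052 in RNA-Seq (adjusted p = 0.831), 0.055 in footprints (adjusted p = 0.604) and −0.017 in TE (adjusted p = 0.987) in edgeR's quasi-likelihood tests. The 95% confidence interval of the TE change ran from −0.16 to 0.13. Aplp2 gave 0.098, 0.025 and −0.094, with an interval of −0.26 to 0.072 in TE.

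Aplp1 footprints were 9786 and 9494 normalized counts in vehicle mice and 10151 and 11242 in AZD-8055 mice. The change was 0.15 on the log2 scale (SE 0.069, unadjusted p = 0.0484, adjusted p = 0.387 in edgeR), and mouse D was the higher of the treated mice. Without mouse C the edgeR value was 0.25 with adjusted p = 0.000765, a fit in which D is the lone treated sample and is assumed to vary like the controls, and in which 837 genes were called against 108. Without mouse D it was 0.051 (adjusted p = 0.845). The TE change of Aplp1 was 0.090 (SE 0.084, adjusted p = 0.896).

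Adam10, the alpha-secretase gene, had a lower TE in both treated mice. Its log2 TE was 0.66 and 0.70 in vehicle mice and 0.36 and 0.35 in AZD-8055 mice. Its RNA-Seq level was 481 and 419.7 against 503 and 470.1 normalized counts, and its footprint level 758 and 682 against 645 and 601. The treated mice were thus lower in footprints alone. The TE change was −0.32 (SE 0.12, interval −0.59 to −0.056, unadjusted p = 0.0208) and the footprint change −0.21 (SE 0.086, unadjusted p = 0.0346). Neither passed the edgeR test after adjustment (adjusted p = 0.567 and 0.353). The TE difference lay at the 8.49th percentile of all genes, and without each mouse in turn it ran from −0.37 to −0.27.

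Psen2 had the largest point estimate of the TE change among the 9 genes and the fewest counts. Its footprints were 125 and 136 normalized counts in vehicle mice and 119.6 and 104.9 in AZD-8055 mice, and its RNA-Seq 119.9 and 130.3 against 134 and 151. The log2 TE was −0.16 in mouse C and −0.53 in mouse D, and the TE change −0.39 (SE 0.22, interval −0.87 to 0.087, adjusted p = 0.781 in edgeR). Bace1 and Ncstn had TE changes of 0.17 (interval −0.10 to 0.45) and 0.069 (interval −0.16 to 0.30). For these 3 genes changes of the sizes at the ends of the intervals cannot be told from none at this depth.

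Apoe had 17553 and 18096 normalized RNA-Seq counts in vehicle mice against 17081 and 17051 in AZD-8055 mice, and 18970 and 18625 against 17176 and 17992 in footprints. The treated mice were the lower in both kinds of library, but how many of all genes show such an order was not counted. The log2 change was −0.085 in RNA-Seq (SE 0.048, adjusted p = 0.694), −0.093 in footprints (SE 0.054, adjusted p = 0.491) and −0.029 in TE (adjusted p = 0.978) in edgeR. Without mouse D the footprint value was −0.15 with adjusted p = 0.0407, with C as the lone treated sample, and without mouse C it was −0.039 (adjusted p = 0.688). Clu gave −0.023 in RNA-Seq, 0.0014 in footprints and 0.0043 in TE, and its groups overlapped in both kinds of library. Without mouse B the RNA-Seq change was −0.051 for Apoe and 0.034 for Clu, while the summed astrocyte markers were at 2169.5 and 2401.5 CPM in the vehicle RNA-Seq libraries and 2224 and 2212 CPM in the AZD-8055 ones. Astrocyte markers had 0 of 8 called in RNA-Seq, footprints or TE.

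**Figure D3:**
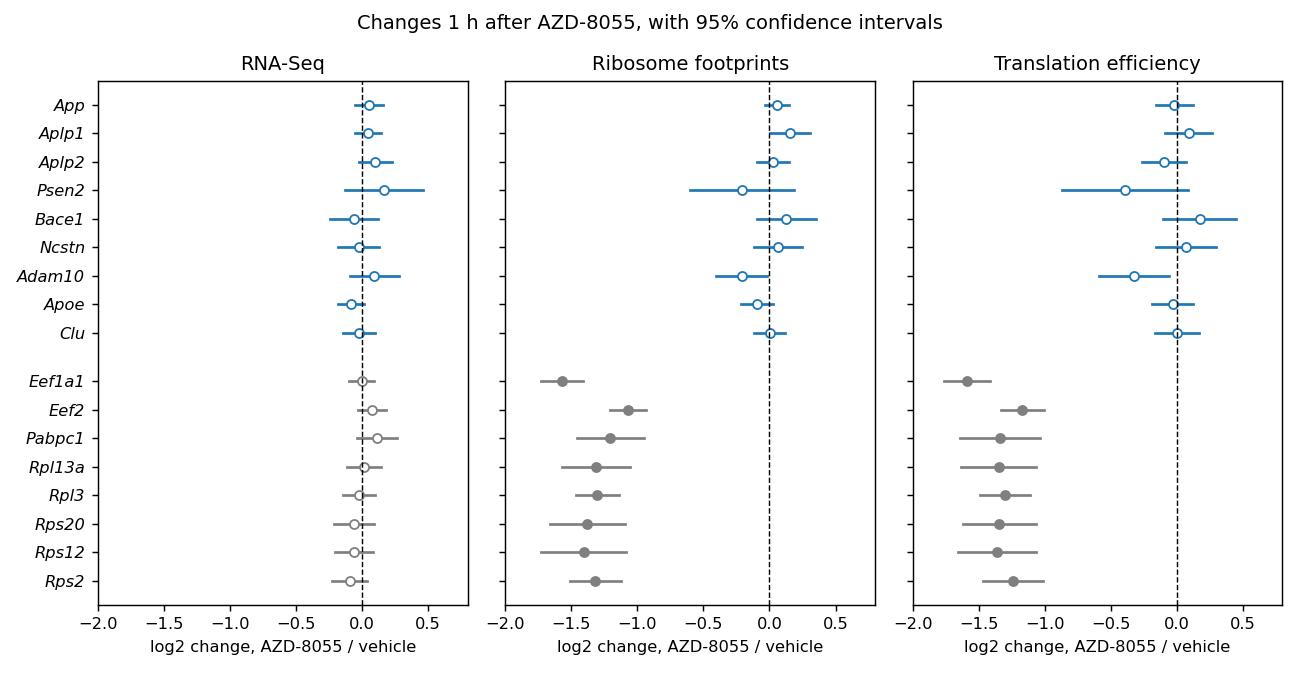
Log2 change of AZD-8055 over vehicle (x axis) in RNA-Seq, ribosome footprints and TE (the 3 panels) with 95% confidence intervals as lines, for the 9 genes in blue and 8 TOP mRNAs in grey, filled points being those with an adjusted p below 0.05. The 9 genes lie between −0.39 and 0.17 with open points in every panel, whereas the TOP mRNAs are filled and between −1.59 and −1.07 in footprints and TE and open near 0 in RNA-Seq.

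The third comparison asked which of these mRNAs were held by tagged ribosomes of Camk2a-expressing neurons, from exon counts of IP against input in mice E and F. The 9 genes spanned most of the range of the data. Aplp1 was enriched, App slightly so, Apoe and Clu were depleted, and Aplp2 and the 4 secretase genes did not pass the test. In bulk tissue fewer cells of a type and less RNA per cell cannot be told apart, and an IP also holds RNA from other cells. Of 6 excitatory neuron markers 5 were called higher in IP (median log2 difference 0.84), and the exception was Camk2a itself, whose promoter drives the Cre, at 0.27. All 8 astrocyte, 7 oligodendrocyte, 3 oligodendrocyte precursor, 6 endothelial and 5 inhibitory neuron markers were lower, as were 7 of 8 microglial markers.

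Aplp1 had 25331 and 22057 normalized exon counts in input and 62692 and 57469 in IP. Both IP libraries held more than 2 times the input level, and log2 IP over input came to 1.31 for E and 1.38 for F (mean 1.34 ± 0.052 SD, n = 2), at the 93.3rd percentile of 13254 genes. In edgeR's quasi-likelihood test the log2 difference was 1.23 (SE 0.10, adjusted p = 0.000149). App had 32481 and 33812 normalized exon counts in input and 45225 and 42407 in IP, and a log2 enrichment of 0.48 and 0.33, at the 62.9th percentile. The edgeR value was 0.29 (SE 0.080, adjusted p = 0.0184), and it was not called when a mean of at least 200 counts was required (0.16, adjusted p = 0.126). On total-count scaling, which lowers the median of all genes from 0.081 to −0.31, the enrichment of App was 0.010. On that scaling Aplp1 stayed at 0.95, Apoe at −3.50 and Clu at −1.59.

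Apoe had 19883 and 16420 normalized exon counts in input and 2115 and 2067 in IP. Both IP libraries lay far below both inputs, with log2 enrichment of −3.23 and −2.99 (mean −3.11 ± 0.17 SD, n = 2), 8.64-fold lower, at the 2.37th percentile, and an edgeR value of −3.23 (SE 0.12, adjusted p = 4.9e-05). The median of the 8 astrocyte markers in the same test was −2.90, with a range from −4.38 to −0.95, and their summed level went from 5086 and 5299 CPM in input to 673 and 782 CPM in IP with none at 0. Apoe lay within this range, and also within those of the oligodendrocyte (−3.60 to −2.21), oligodendrocyte precursor (−4.03 to −2.83), microglial (−4.15 to −0.37) and endothelial (−4.83 to −2.59) markers. Clu had 13422 and 12515 normalized exon counts in input and 5591 and 5703 in IP. Its log2 enrichment of −1.26 and −1.13 (mean −1.20 ± 0.092 SD, n = 2), 2.30-fold lower, was a smaller depletion than that of Apoe in both mice, and the edgeR value was −1.32 (SE 0.086, adjusted p = 8.4e-05). Clu lay above all 7 oligodendrocyte markers and above 7 of the 8 astrocyte markers, the exception being Aldh1l1 at −0.95. It likewise lay above every microglial marker except Aif1, at −0.37, which was not called. Both exceptions were named after their values were seen. The part of any glial type in these values was not tested.

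Of the 9 genes, 2 were called higher and 2 lower in IP, against 33.7% and 35.7% of all genes tested, and the median of the 9 was −0.0081 against −0.034 for all genes. The secretase genes were near the typical gene. The log2 enrichment in mice E and F was 0.32 and 0.45 for Psen2, 0.24 and 0.25 for Bace1, −0.041 and −0.11 for Ncstn and 0.064 and 0.035 for Adam10, where the median of all genes was 0.080. In the edgeR fit these were 0.27 (adjusted p = 0.131), 0.12 (adjusted p = 0.254), −0.19 (adjusted p = 0.201) and −0.068 (adjusted p = 0.615). Ncstn was called by edgeR with the mouse as a replicate block (−0.20, adjusted p = 0.0260). That fit called 10730 of all 13254 genes, against 9194 without the block. Aplp2 was at 0.097 and 0.12, and at −0.0081 in the edgeR fit (adjusted p = 0.933).

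**Figure D4:**
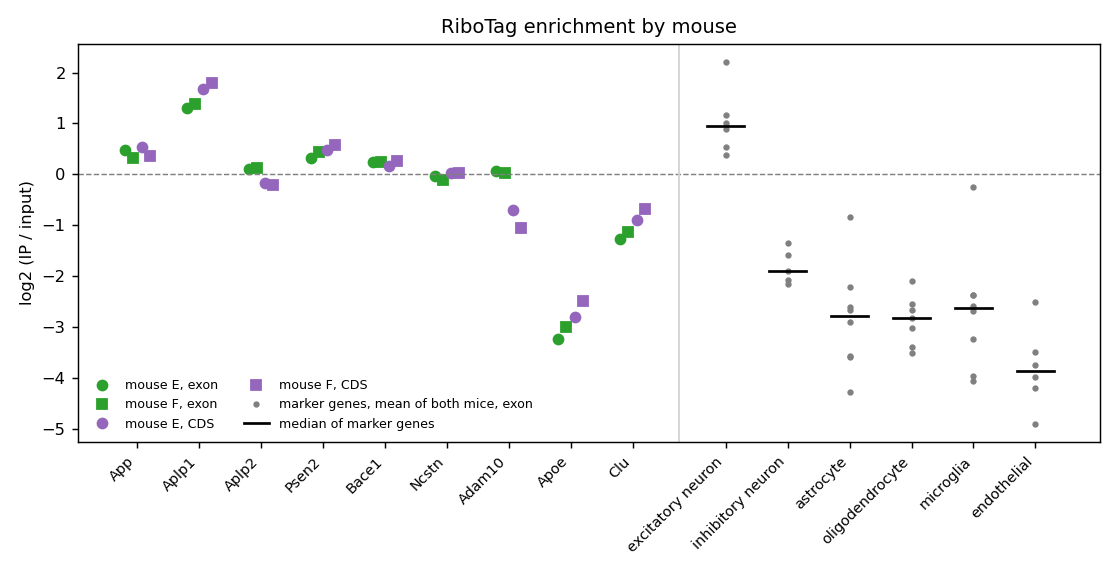
Log2 of IP over input (y axis) of the 9 genes in mice E (circles) and F (squares), from exon counts in green and CDS counts in purple, with marker genes of 6 cell types in grey (mean of both mice, exon counts) and their medians as bars. Aplp1 lies above the zero line at 1.31 to 1.79, Apoe lies at −3.23 to −2.48 among the glial markers, and Adam10 moves from 0.064 and 0.035 on exons to −0.69 and −1.04 on CDS.

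The choice of region counted mattered for Adam10 and Aplp2. On exons Adam10 did not pass the test, and on CDS counts alone log2 IP over input came to −0.69 for E and −1.04 for F, with an edgeR value of −1.003 (SE 0.14, adjusted p = 0.000171). Aplp2 likewise went to −0.16 and −0.22 and was called lower (−0.32, SE 0.098, adjusted p = 0.0145, edgeR). App, Aplp1, Apoe and Clu kept their direction and their call on CDS in edgeR. For App this depended on scaling. In CPM of CDS counts it was lower in IP than in input, at 2097 against 2121 in mouse E and 1884 against 2207 in mouse F. With CDS counts, 6 of the 9 genes were called, beside 9221 of all 12211 genes tested, so a call was common on this region too.

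Beside this stands the share of a gene's exon counts that lay on its CDS, which in each mouse was smaller for IP than for input in 8 of the 9 genes. For Adam10 the share was 49.9% and 47.8% in input and 21.9% and 15.8% in IP. For Aplp2 it was 62.6% and 62.0% in input against 38.7% and 34.3% in IP, and for App 74.6% and 71.6% against 57.5% and 51.1%. The IP share was the lower in both mice for these 3 genes. The median of 12159 genes moved the same way, from 67.8% and 66.7% to 54.2% and 50.5%, so a drop is shared by much of the transcriptome. Apoe, whose exons are nearly all coding in these counts, went from 99.3% in both inputs to 99.5% and 98.8%, and Clu from 94.9% and 94.6% to 90.6% and 91.0%. The RNA-Seq libraries of mice A to D, at a median of 65.2% to 66.4%, resembled input. The part of this shift in the values of Adam10 and Aplp2 was not tested.

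**Figure D5:**
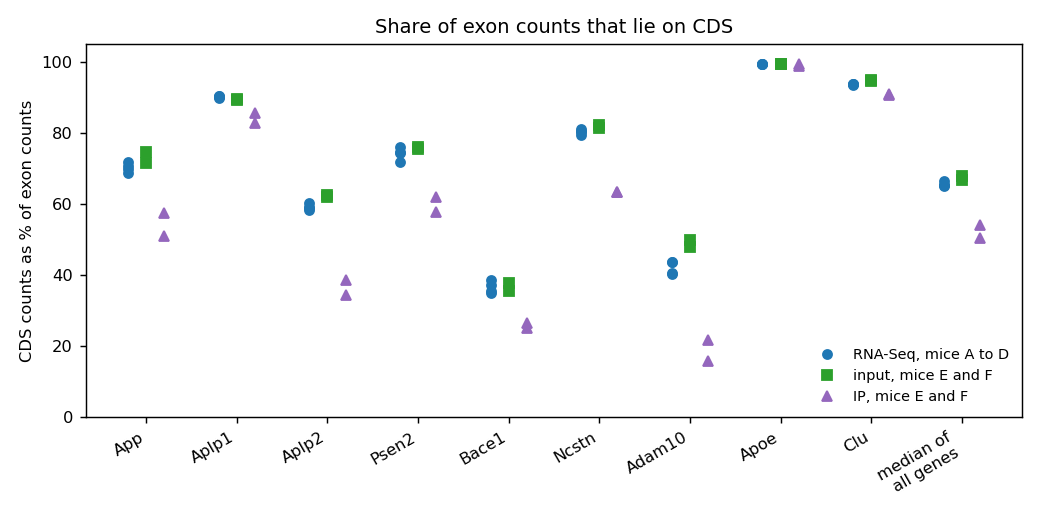
CDS counts as a percentage of exon counts (y axis) for each gene and for the median of all genes (x axis), with RNA-Seq of mice A to D as blue circles, input as green squares and IP as purple triangles, 1 point per library. IP lies below input for each gene except Apoe, whose points lie near 99%, and the gap is widest for Adam10, at 21.9% and 15.8% in IP against 49.9% and 47.8% in input.

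The other genes of amyloid precursor processing and of lipid transport were taken as fixed lists, 39 genes beside the 9. In IP against input 9 of the 39 were called higher and 17 lower, with a median log2 difference of −0.35, beside 33.7% higher and 35.7% lower and a median of −0.034 over all genes tested. The 3 largest enrichments were those of Itm2c (1.32), Psenen (1.18) and Apbb1 (0.96), which encode a relative of the amyloid precursor inhibitor Itm2b, the smallest gamma-secretase subunit and an adaptor that binds the tail of App. The 3 largest depletions were those of Timp3 (−3.80), an inhibitor of metalloproteases, Lcat (−3.55), which esterifies cholesterol on lipoproteins, and Abca1 (−2.87), which loads lipid onto apolipoprotein E.

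By role, against that same background, all 4 proteases that degrade amyloid-beta were lower in IP, from −2.22 to −0.53, as were 6 of 8 lipoprotein receptors and lipid exporters, with none higher. Of 7 gamma-secretase subunits, Psen2 and Ncstn included, Psenen was the 1 called higher and Aph1b the 1 called lower, at −0.47, a gene whose reads can be shared with its near-identical copy Aph1c. Of 5 alpha- and beta-secretases, Adam10 and Bace1 included, Bace2 was called higher at 0.69 and Adam17 lower at −1.90. The 10 adaptors and sorting factors had 3 called higher and 2 lower, and the 9 secretase substrates and regulators 4 higher and 3 lower.

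In the TE of vehicle mice, 38 of the 39 had enough counts, 20 were called higher and 8 lower, and their median log2 TE was 0.42 in the edgeR fit, beside 37.1% higher and 36.7% lower and a median of 0.0051 over all genes tested. Among the gamma-secretase subunits other than Psen2 and Ncstn, 2 genes named after their values were seen had calls in the edgeR test. Aph1a was called lower (−0.96, adjusted p = 4.2e-06) and Aph1b higher (0.59, adjusted p = 0.0416). Reads of Aph1b can be shared with Aph1c here too. In AZD-8055 mice Aph1b fell below the minimum count required for a percentile of log2 TE. Appbp2 (1.94) and Sorl1 (1.70), an App-binding protein and a sorting receptor for App, were among the highest. Apba3 (−3.09), Ece2 (−1.39) and Abca7 (−1.31) were the 3 lowest, an App adaptor, an endopeptidase and a lipid transporter. Apba3 fell below the minimum count required for a percentile of log2 TE, so the size of its value rests on few counts. Ece2 and Abca7 met that minimum. Lipoprotein receptors and exporters had 5 called higher and 3 lower, and of the 9 secretase substrates and regulators 7 were higher and 0 lower. After AZD-8055 no gene of the 39 was called in RNA-Seq (38 tested), footprints (35 tested) or TE (38 tested) by edgeR.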

How the data were processed

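Poly(A) RNA-Seq (TruSeq V2, unstranded) and ligation-free ribosome footprint libraries were made by the authors from mouse brain. The deposited values are unnormalized counts per gene on CDS (12 libraries) and on exons (8 RNA-Seq libraries), made by the authors on mm10 with Bowtie2 for ribosomal RNA removal, TopHat2 and HTSeq. Versions and annotation are not given in the sources used here. Mice were separate animals.

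Counts were tested with edgeR 4.0.16 (R 4.3.3, quasi-likelihood, TMM, Benjamini-Hochberg over every gene whose mean count was 37 or more, adjusted p below 0.05). TE in vehicle mice and its change were contrasts in 1 model over the 8 matched libraries. RNA-Seq, footprints, and IP against input were fitted on 4 libraries each. Log2 TE and log2 enrichment per mouse used DESeq2 1.42.0 size factors, with at least 75 counts per kind of library summed over 2 mice for a percentile. Percentiles are among all such genes.

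Libraries of 1 mouse share tissue, so mouse letters pair them. Gene-wise differences A minus B correlated at 0.24 between RNA-Seq and footprints, C minus D at 0.22, and E minus F at 0.56 between input and IP. The main fits had no block, and a fit with the mouse as replicate block was an alternative. Chi-square per degree of freedom between replicates was 2.61 to 9.53, so no libraries were duplicates. The other alternatives were DESeq2, RLE normalization, no filter, a mean count of 200 or more, a fold limit of 2, the other region counted, other scalings, and each mouse left out.

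The genes named were the 9 members, up to 3 of the pathway lists per direction with the largest change among those called and moved alike in both mice, and, for App, Apoe and Clu, the 3 genes with the highest correlation of log2(CPM + 1). One gene that this rule names is not reported here. The count of members, percent called and marker lists are described without set tests. The members and lists were chosen with earlier results of these data known. On simulated counts in which 200 genes were given a log2 change of 1, 93.5% were recovered for TE in vehicle mice (11797 genes), 73.0% for the TE change (11797 genes), 92.0% for RNA-Seq (12182 genes), 91.5% for footprints (10695 genes) and 79.0% for IP against input (13254 genes), with 8.78%, 8.18%, 5.64%, 8.96% and 12.7% false calls among all calls. Date-like entries stood in place of 27 gene symbols, none of them a member. Gene positions are those of RefSeq (GRCm38.p6).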

Additional observations from a re-analysis of the deposited data

How the results depend on the processing

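With 2 mice per group, and with footprint libraries of fewer counts than RNA-Seq libraries, small changes were not detectable, least of all for Psen2, which had no value at a mean count of 200 or more and no adjusted p from DESeq2 for the TE and footprint changes. TE rests on 2 library chemistries. Scaling by total counts lowered the median of all genes from 0.081 to −0.31 in IP against input. Each mouse of the RiboTag pair alone gave a value without a test. A fit without 1 treated or control mouse assumed that the lone sample varies like the others. The cause of the shifts below was not tested.

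The TE calls in vehicle mice for App, Aplp1, Aplp2, Adam10 and Clu were kept under DESeq2, RLE normalization, both filters, the replicate block and each mouse left out. A required fold of 2 left 1 of the 9 genes and 3640 genes in all (6 and 8705 without it), and 36 genes for the TE change, 4 for RNA-Seq, 36 for footprints and 4433 for IP against input (102, 18, 108 and 9194 without it). DESeq2 called 28 genes in RNA-Seq. Without a filter on low counts 78 genes were called in RNA-Seq and 264 in footprints. With each mouse left out in turn, calls ranged from 56 to 77 for the TE change, from 13 to 36 for RNA-Seq and from 64 to 837 for footprints, where the 9 genes had 0 to 1 call (Aplp1 without mouse C, Apoe without mouse D).

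The log2 TE of Apoe in vehicle mice, a called gene, turned from 0.077 to −0.021 on total counts. App, called higher in IP, was lower in IP than in input in CPM of CDS counts in both mice. The other signs that turned belonged to differences that were not called. The TE change of Clu was −0.040 without a filter, and footprint changes were then −0.0069 for Aplp2 and −0.031 for Clu. RNA-Seq changes on exon counts were 0.015 for Ncstn and 0.00056 for Clu. With each mouse left out, TE changes ranged from −0.084 to 0.052 for App, from −0.083 to 0.029 for Apoe and from −0.057 to 0.069 for Clu, RNA-Seq changes from −0.16 to 0.022 for Bace1, from −0.074 to 0.021 for Ncstn and from −0.074 to 0.034 for Clu, and the footprint change of Clu from −0.035 to 0.033. In IP against input, Aplp2 was at 0.023 under DESeq2, at 0.023 under RLE and at 0.082 without a filter, Adam10 at 0.022 without a filter, and Bace1 at −0.0063 at a mean count of 200 or more.

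The median log2 TE of the 9 genes in vehicle mice was 0.077, and −0.021 on total counts and 0.033 with TMM factors. Their median log2 enrichment was 0.11, and −0.28 on total counts, 0.082 with TMM factors and 0.032 on CDS counts. With the mouse as a replicate block, 6 of the 9 genes were called in TE of vehicle mice, beside 8980 of all 11797 genes. In the TE change it was 0 of the 9, beside 144 of 11797. In IP against input it was 5 of the 9, beside 10730 of 13254, where the fit without the block called 9194. The additional call was Ncstn (−0.20), and the block changed no other call among the 9 genes.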

Other observations

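The genes whose CDS levels were most like those of App, Apoe and Clu were found by the Pearson correlation of log2(CPM + 1) over the 12 libraries, among the 12014 genes with a mean count of 37 or more. For App these were Ankrd46 (0.992), Ywhaq (0.989), a 14-3-3 protein, and Kcnip4 (0.988), a potassium channel partner of neurons. For Apoe they were Csrp1 (0.996), Pygb (0.996), the brain glycogen phosphorylase, and Hepacam (0.996), an adhesion molecule of astrocytes. For Clu they were Car2 (0.994), a carbonic anhydrase, Ttyh2 (0.993) and Il33 (0.993), a cytokine of glia. The 12 points share their kind of library and, in pairs, their mouse, so these values describe the order of the libraries and carry no p.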
